A study of Homo sapiens with 17 samples.

Results

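The 8 enzymes examined here convert lanosterol, the first sterol of the pathway, into cholesterol. They are CYP51A1, TM7SF2, MSMO1, NSDHL, HSD17B7, EBP, SC5DL and DHCR7. They were chosen by gene symbol, and all 8 had a row among the 9699 features of the expression table, where SC4MOL is listed under its newer symbol MSMO1. The study applied RNA-Seq of poly(A) RNA and Ribo-Seq, the sequencing of the mRNA fragments that ribosomes protect, to BJ cells, human primary fibroblasts immortalised with hTERT. All groups therefore carry hTERT. Proliferating cells were kept in medium with fetal calf serum, and quiescent cells were depleted of serum. Pre-senescent and senescent cells carried RASG12V inducible by tamoxifen and were sampled after 5 and 14 days of exposure to 4-OHT-Tamoxifen. Transformed cells carried a p16INK4A knockdown, a p53 knockdown and SV40 small T, and received RASG12V from the pBabe-puro retrovirus.

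The 17 libraries (9 RNA-Seq, 8 Ribo-Seq) fill 12 columns, 6 for each assay. Run 1 holds proliferating, quiescent and pre-senescent cells, and run 2 holds a further proliferating culture with senescent and transformed cells. In 5 of the 12 columns, the deposited value stands for 2 libraries. These are both assays of run 1 proliferating and quiescent cells and the RNA-Seq of pre-senescent cells. Proliferation has 1 column per assay in each run and every other condition has 1 column per assay in all, so no condition has replicate columns within a run and no p-value was computed. Levels are given in FPKM (fragments scaled to transcript length and to the mapped reads of the library), with a floor of 1. A gene is called higher or lower when its level differs by at least 2-fold, or its translation efficiency (TE, the ratio of Ribo-Seq FPKM to RNA FPKM) by at least 1.5-fold, from the proliferating cells of the same run. The share of all features past the same limit is given beside the first count of enzymes in each comparison. Quiescence and pre-senescence share one control column per assay, as do senescence and transformation. The spread between the proliferating columns of the 2 runs is the only measure of variation, and it includes the difference between runs. The study lists the RNA-Seq libraries of run 1 as paired-end and those of run 2 as not paired-end.

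Some labels need care. For 2 Ribo-Seq libraries of run 2, the title and the condition field name opposite groups (proliferating and senescent). The titles were followed here, and every Ribo-Seq or TE value given for senescent or run 2 proliferating cells rests on them. Across 8414 features, senescent RNA correlated with the Ribo-Seq column titled senescent at a Spearman coefficient of 0.854 and with the one titled proliferating at 0.756. Run 2 proliferating RNA correlated with the column titled proliferating at 0.824 and with the one titled senescent at 0.738. The summed Ribo-Seq level of 5 proliferation genes was 22.7 FPKM in the column titled senescent and 361 in the one titled proliferating. MKI67, a proliferation marker, was at the floor of 1 in both columns titled senescent and at 44.0 (RNA) and 43.0 (Ribo-Seq) in both run 2 columns titled proliferating. In the cells labelled transformed, CDKN2A RNA, which encodes p16INK4A, was 12.6 FPKM against 6.75 in run 2 proliferating cells, higher rather than lower under its labelled knockdown. HRAS RNA was 2415 and 1284 FPKM in the proliferating columns of runs 1 and 2 and 1254 in quiescence. It was 2102 in pre-senescence, 2087 in senescence and 312 in the cells labelled transformed, so it does not check the labels. All 10 fibroblast markers were in the table, with a summed RNA level of 5249 to 7515 FPKM over the 6 columns, of which VIM made 2956 to 4881. One by one, 2 of the 10 were called higher (4.11% of features) and none lower (2.43%) in quiescent RNA. In pre-senescence 5 were lower (2.05%), in senescence 7 (13.2%) and in the cells labelled transformed 4 (5.39%). None was higher in these conditions (1.82%, 7.19% and 4.97%, in the same order). Between the proliferating columns, 6 were higher in run 2 (4.93% of features). Their part in the enzyme results was not tested. None of 4 endothelial markers was in the table, and 2 of 5 epithelial and 2 of 3 leukocyte markers were.

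Cholesterol synthesis begins with acetyl-CoA and passes through mevalonate and squalene to lanosterol. In the steps that follow, methyl groups at C14 and C4 are removed and double bonds are moved or reduced in the membrane of the endoplasmic reticulum. Transcription of the enzymes is driven by the sterol regulatory element binding proteins, encoded by SREBF1 and SREBF2. These are held in the endoplasmic reticulum by INSIG proteins when sterol is plentiful and released when it is scarce, and they act at promoters together with NF-Y and Sp1. Fibroblasts in culture take most of their cholesterol from serum lipoprotein.

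The promoters of the enzymes are shown first, since the 8 genes moved together in quiescence. RefSeq promoter windows (GRCh38.p14, from 250 bases before to 50 bases after the annotated start) were matched for 8 of 8 enzymes, with 2 alternative starts for SC5DL (SC5D in RefSeq) and for DHCR7. The 160 bases directly upstream of the start are printed for the 3 enzymes with the largest RNA difference in quiescence (TM7SF2, MSMO1 and the first start of DHCR7), the 2 with the smallest (NSDHL and EBP), and CYP51A1, whose window stood apart. They lie at chr11:65111712-65111871, chr4:165327509-165327668, chrX:152830903-152831062 and chrX:48521648-48521807 on the plus strand, and at chr11:71448394-71448553 and chr7:92134478-92134637 on the minus strand, and are read 5′ to 3′ in the direction of the gene. Capitals mark matches, on either strand, to CCAAT (NF-Y) or GGGCGG (Sp1).
TM7SF2: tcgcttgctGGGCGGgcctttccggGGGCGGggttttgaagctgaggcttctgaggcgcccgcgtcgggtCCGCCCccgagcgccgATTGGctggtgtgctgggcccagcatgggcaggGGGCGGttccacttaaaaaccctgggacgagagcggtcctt
MSMO1: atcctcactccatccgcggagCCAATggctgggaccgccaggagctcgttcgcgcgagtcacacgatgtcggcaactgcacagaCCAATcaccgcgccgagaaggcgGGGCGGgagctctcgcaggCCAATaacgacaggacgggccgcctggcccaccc
NSDHL: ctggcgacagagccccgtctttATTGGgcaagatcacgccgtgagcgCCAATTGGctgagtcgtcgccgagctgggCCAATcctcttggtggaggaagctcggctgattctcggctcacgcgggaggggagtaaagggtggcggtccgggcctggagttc
EBP: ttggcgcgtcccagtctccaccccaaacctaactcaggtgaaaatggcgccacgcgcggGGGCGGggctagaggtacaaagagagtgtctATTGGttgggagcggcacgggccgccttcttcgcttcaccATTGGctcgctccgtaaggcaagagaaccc
DHCR7: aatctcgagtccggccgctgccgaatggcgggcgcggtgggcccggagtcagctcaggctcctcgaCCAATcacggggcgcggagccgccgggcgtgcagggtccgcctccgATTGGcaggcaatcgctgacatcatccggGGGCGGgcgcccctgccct
CYP51A1: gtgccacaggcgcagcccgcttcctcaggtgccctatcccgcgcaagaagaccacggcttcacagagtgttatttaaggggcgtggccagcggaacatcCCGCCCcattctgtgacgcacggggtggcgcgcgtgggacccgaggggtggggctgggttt

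CCAAT, the letters bound by NF-Y, occurred in the windows of 7 of the 8 enzymes, all but CYP51A1, and in 34.6% of all 35116 windows of this length. At least 2 matches in one window were found for 5 enzymes (MSMO1, NSDHL, HSD17B7, EBP and DHCR7) and in 10.8% of all windows. NSDHL held 5 matches, of which those starting 113 and 110 bases upstream overlap in the run CCAATTGG, and MSMO1 held 4. GGGCGG, the core bound by Sp1, was present for 7 of the 8 enzymes, all but NSDHL, against 45.0% of all windows, and TM7SF2 and the first start of DHCR7 held 4 matches each. CACGTG, the E-box, was found for SC5DL alone, against 7.26% of all windows. The letters TCACNCCAC, one form of the sterol regulatory element, were in none of the 8 enzymes' windows and in 1.13% of all windows. The second start of DHCR7 had no match to any of the 4 motifs. These are letter matches and not measured binding.

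CYP51A1, the cytochrome P450 that removes the C14 methyl group of lanosterol, opens the sequence. Its RNA level was 19.0 FPKM in proliferating cells of run 1, 23.7 in those of run 2, 93.6 in quiescence, 28.5 in pre-senescence, 31.2 in senescence and 23.6 in the cells labelled transformed. Its Ribo-Seq level was 44.7, 72.1, 216, 92.3, 170 and 68.9 FPKM in the same order. Quiescence was the highest column in both assays, and the RNA levels of the other 5 columns lay between 19.0 and 31.2. In Ribo-Seq, senescence came second and stood well above both proliferating columns, although its RNA was only 1.32-fold above that of run 2 proliferating cells.

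TM7SF2 encodes one of the 2 enzymes that reduce the C14 double bond left by CYP51A1. Its RNA was at the floor of 1 FPKM in run 1 proliferating and pre-senescent cells, and measured 1.94 in run 2 proliferating cells, 20.05 in quiescence, 8.89 in senescence and 3.04 in the cells labelled transformed. Its Ribo-Seq level was 1 (the floor) in run 1 proliferating cells, 2.08 in run 2 proliferating cells, 16.2 in quiescence, 2.00 in pre-senescence, 8.85 in senescence and 3.05 in the cells labelled transformed. TM7SF2 was thus near the limit of the table wherever cells proliferated, and only quiescence and senescence exceeded 4 FPKM in either assay. Its ratios against run 1 proliferating cells are lower bounds.

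MSMO1, SC4MOL in older nomenclature, is the oxidase that begins removal of the C4 methyl groups. Its RNA level was 8.46 and 16.01 FPKM in proliferating cells of runs 1 and 2, 85.5 in quiescence, 21.1 in pre-senescence, 40.0 in senescence and 29.2 in the cells labelled transformed. The corresponding Ribo-Seq levels were 28.4, 57.1, 187, 37.4, 189 and 103 FPKM. The 2 assays ordered the columns differently, since senescence equalled quiescence in Ribo-Seq but was well below it in RNA, with a senescent to quiescent ratio of 1.01 in Ribo-Seq and 0.468 in RNA. NSDHL, the dehydrogenase that carries out the decarboxylation at C4, had RNA levels of 16.3, 12.7, 47.3, 32.1, 26.5 and 18.6 FPKM for proliferation in runs 1 and 2, quiescence, pre-senescence, senescence and the transformed label. Its Ribo-Seq levels were 32.0, 31.9, 120, 66.2, 77.9 and 43.8 FPKM. Both assays placed quiescence first and the proliferating columns last, and pre-senescence and senescence were intermediate.

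HSD17B7, the ketoreductase that completes C4 demethylation, had with TM7SF2 the lowest RNA levels of the enzymes in every column. Its RNA was 3.33 and 6.13 FPKM in proliferating cells of runs 1 and 2, 21.9 in quiescence, 5.26 in pre-senescence, 4.80 in senescence and 10.3 in the cells labelled transformed. Its Ribo-Seq levels were 1.97, 6.53, 26.3, 5.71, 8.90 and 11.4 FPKM. It was the only enzyme with a lower RNA level in senescence than in the proliferating cells of that run, and the only one whose second highest column was the transformed label in both assays. The run 1 proliferating value lay close to the floor, and the 2 proliferating columns differed 3.31-fold in Ribo-Seq. HSD17B7 and CYP51A1 also have pseudogene copies in the human genome, whose effect on these levels was not tested.

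EBP shifts the double bond of the B ring. Its RNA level was 16.1 and 13.1 FPKM in the proliferating columns of runs 1 and 2, 42.7 in quiescence, 17.1 in pre-senescence, 14.5 in senescence and 15.8 in the cells labelled transformed. Its Ribo-Seq levels were 49.1, 46.6, 157, 74.9, 56.1 and 47.1 FPKM. Apart from quiescence, the RNA levels of EBP stayed between 13.1 and 17.1 FPKM, the narrowest band among the enzymes. SC5DL, the desaturase that forms the C5 double bond, had RNA levels of 10.6, 12.1, 42.9, 16.7, 23.4 and 12.7 FPKM in proliferation of runs 1 and 2, quiescence, pre-senescence, senescence and the transformed label. Its Ribo-Seq levels were 17.4, 31.9, 74.5, 35.9, 82.0 and 37.0 FPKM. As with MSMO1, senescence was level with quiescence in Ribo-Seq (ratio 1.10) and lower in RNA (ratio 0.547).

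DHCR7, which reduces the last ring double bond and yields cholesterol from dehydrocholesterol, had the highest RNA level of the 8 enzymes in every column. The levels were 22.7 FPKM in run 1 and 28.4 in run 2 proliferating cells, 214 in quiescence, 33.5 in pre-senescence, 62.6 in senescence and 34.3 in the cells labelled transformed. Its Ribo-Seq levels were 36.8, 38.9, 425, 110, 122 and 37.6 FPKM. Quiescence exceeded every other column by more than 3-fold in both assays. The cells labelled transformed did not stand apart from the proliferating columns in Ribo-Seq.

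**Figure D1:**
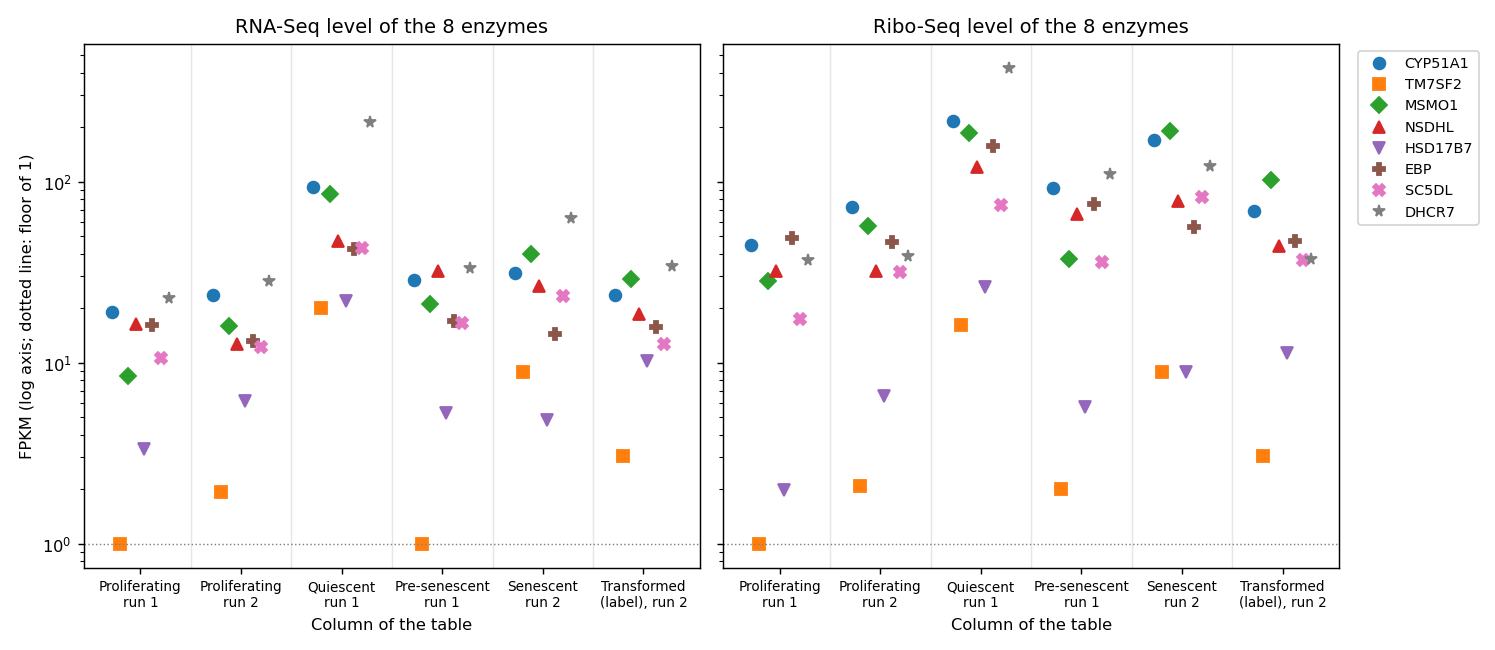
FPKM (log axis) of the 8 enzymes by RNA-Seq (left) and Ribo-Seq (right) in the 6 columns of each assay; each symbol is the single deposited value of 1 enzyme and the dotted line is the floor of 1. In RNA all 8 enzymes were highest in quiescence, with TM7SF2 at 20.05, and in Ribo-Seq MSMO1 and SC5DL were as high in senescence as in quiescence.

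The comparison of quiescent with proliferating cells asks how serum depletion altered the pathway. The RNA level was at least 2-fold higher for 8 of 8 enzymes, against 4.11% of 9473 features, and lower for none (2.43% of features). The Ribo-Seq level was higher for 8 of 8 as well (9.31% of 9491 features) and lower for none (8.20%). The enzymes were picked with earlier results of these libraries known, so the counts are a description and not independent evidence. The median log2 difference of the enzymes was 2.51 in RNA and 2.49 in Ribo-Seq, compared with -0.009 and -0.074 over all features.

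The size of the quiescence difference varied along the sequence. TM7SF2 was at least 20.05-fold higher in RNA and at least 16.2-fold higher in Ribo-Seq, and ranked 3 among 9473 features in RNA. MSMO1 was 10.1-fold higher in RNA (log2 difference 3.34, rank 8) and DHCR7 9.45-fold (3.24, rank 9). HSD17B7 followed with 6.58-fold, CYP51A1 with 4.94-fold and SC5DL with 4.06-fold. The smallest differences belonged to NSDHL (2.90-fold, rank 143) and EBP (2.66-fold, rank 162), which had the highest RNA levels after DHCR7 and CYP51A1 in run 1 proliferating cells. In Ribo-Seq the order after TM7SF2 was HSD17B7 (13.4-fold), DHCR7 (11.6-fold), MSMO1 (6.56-fold), CYP51A1 (4.82-fold), SC5DL (4.28-fold), NSDHL (3.77-fold) and EBP (3.21-fold).

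These differences exceeded the distance between the 2 proliferating columns for every enzyme. Measured against whichever proliferating column was higher, quiescent RNA was still 2.66-fold (EBP) to 10.3-fold (TM7SF2) higher, and quiescent Ribo-Seq 2.34-fold (SC5DL) to 10.9-fold (DHCR7) higher. The summed RNA level of 5 proliferation genes was 321 FPKM in run 1 proliferating cells and 139 in quiescence, and in bulk samples fewer dividing cells and less RNA per cell cannot be told apart. Their part in the enzyme result was not tested.

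Translation efficiency moved less in quiescence. Of the 7 enzymes above the floor in both columns and assays, HSD17B7 was called higher and MSMO1 lower, against 10.6% of 9061 features called higher and 13.8% called lower. HSD17B7 had a Ribo-Seq to RNA ratio of 0.592 in run 1 proliferating cells and 1.20 in quiescence, a 2.03-fold difference that rested on the near-floor value of 1.97 FPKM. With the run 2 proliferating cells as control it was not called. MSMO1 went from 3.36 to 2.18 (log2 difference -0.62), a call that was lost with 1 FPKM added to all values. CYP51A1, NSDHL, EBP, SC5DL and DHCR7 had log2 TE differences from -0.04 to 0.38.

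Pre-senescent cells were examined 5 days after RASG12V induction to capture an early response to the oncogene. In RNA, MSMO1 alone of the 7 enzymes off the floor was called higher (2.50-fold, against 1.82% of 9447 features), and none was called lower (2.05% of features). MSMO1 was not called against the run 2 proliferating cells, in which its RNA was 16.01 FPKM. There NSDHL was called higher instead (5.14% of features), as it was against the mean of both controls (2.15%). Against the run 1 control, NSDHL was just short of the limit at 1.97-fold. CYP51A1, HSD17B7, SC5DL and DHCR7 were between 1.48-fold and 1.58-fold, and EBP was at 1.06-fold. All 7 were above their control, with a median log2 difference of 0.66 compared with 0.037 over all features.

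The pre-senescent Ribo-Seq level was at least 2-fold higher for 6 of 8 enzymes, against 7.31% of 9461 features, and lower for none (10.6%). DHCR7 (2.98-fold) and HSD17B7 (2.90-fold) led. CYP51A1, NSDHL and SC5DL passed the limit narrowly at 2.06-fold, 2.07-fold and 2.06-fold, and TM7SF2 stood at the limit itself, with 2.00 FPKM against the floor. EBP (1.53-fold) and MSMO1 (1.32-fold) were not called. Against the run 2 control only NSDHL and DHCR7 were called higher, with 9.35% of features. By the study's own kind of limit, a multiple of the SD among features of like level, only DHCR7 was (2.72% of features). After centring on the median of all features, which was -0.124, 9.34% of features were called higher and 8.53% lower, and the same 6 enzymes passed.

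Pre-senescent TE was called higher for HSD17B7 and DHCR7 and lower for MSMO1 among 7 enzymes, against 13.6% of 8928 features higher and 22.5% lower. Because the median over all features was -0.148, centring changed the split to 18.9% higher and 15.6% lower, and then 4 enzymes were called higher. DHCR7 went from a Ribo-Seq to RNA ratio of 1.62 in run 1 proliferating cells to 3.27, and it was the call that held under each alternative tried. MSMO1 fell from 3.36 to 1.77, the reverse of its RNA difference. The pre-senescent Ribo-Seq column is a single library, whereas its RNA column and both control columns each stand for 2.

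**Figure D2:**
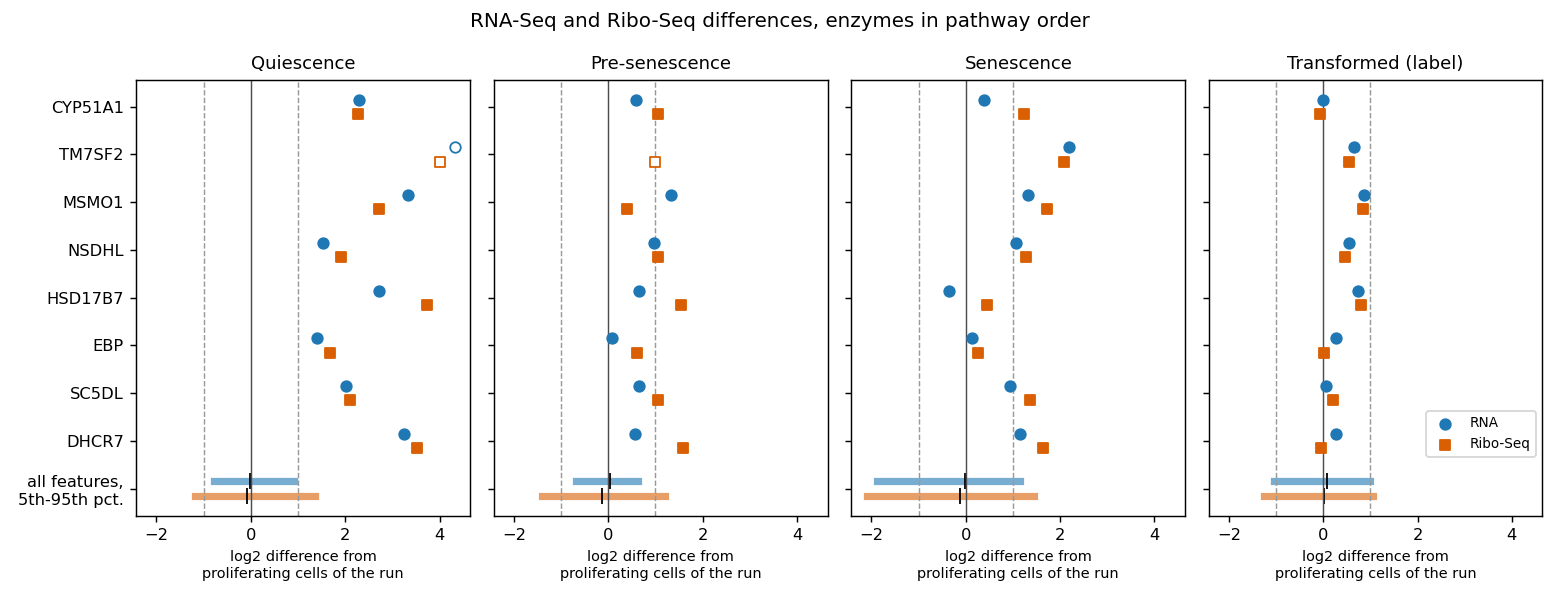
Log2 difference of each enzyme from the proliferating cells of the same run, in RNA (blue circles) and Ribo-Seq (orange squares), with 1 panel per condition and enzymes in pathway order from the top. Open symbols are lower bounds against the floor, dashed lines mark 2-fold, and the bars at the bottom span the 5th to 95th percentile of all features with a tick at the median. In quiescence all 8 enzymes lay beyond 2-fold in both assays, and in the cells labelled transformed none did.

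Senescent cells were taken after 14 days of RASG12V induction by 4-OHT-Tamoxifen, and here too the drug and the oncogene cannot be told apart. RNA was at least 2-fold higher than in run 2 proliferating cells for 4 of 8 enzymes, against 7.19% of 9560 features, and lower for none (13.2%). TM7SF2 was 4.58-fold higher, MSMO1 2.50-fold, DHCR7 2.21-fold and NSDHL 2.09-fold. SC5DL was just short of the limit at 1.93-fold, whereas CYP51A1 (1.32-fold), EBP (1.10-fold) and HSD17B7 (0.783-fold) were nearer to their control. The median log2 difference was 1.01, compared with -0.015 over all features. By the limit on the local SD, TM7SF2 alone was called higher (1.9% of features).

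In Ribo-Seq 6 of 8 enzymes were called higher in senescence, against 11.2% of 9544 features, and none lower (16.8%). TM7SF2 was 4.25-fold, MSMO1 3.31-fold, DHCR7 3.13-fold, SC5DL 2.57-fold, NSDHL 2.44-fold and CYP51A1 2.36-fold higher, while HSD17B7 (1.36-fold) and EBP (1.20-fold) were not called. The median over all features was -0.119, and the same 6 were called after centring. By the limit on the local SD only TM7SF2 was (2.24% of features). The senescent Ribo-Seq and TE results depend on the titles of the 2 libraries with conflicting labels. With the condition field followed instead, the same 6 enzymes were called lower in Ribo-Seq (11.2% of features). The proliferation genes and the correlations between RNA and Ribo-Seq columns given above go with the titles.

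For TE in senescence, CYP51A1 and HSD17B7 were called higher and none lower, against 13.2% of 8839 features higher and 17.5% lower. CYP51A1 went from a Ribo-Seq to RNA ratio of 3.04 in run 2 proliferating cells to 5.45, above the TE of 97.7% of features in the senescent column. HSD17B7 went from 1.07 to 1.85. Neither passed 2-fold. DHCR7 (1.42-fold), SC5DL (1.33-fold) and MSMO1 (1.33-fold) were higher without reaching 1.5-fold, and TM7SF2 was at 0.929-fold. The summed RNA level of 5 proliferation genes was 11.9 FPKM in senescence and 219 in its control, and the part of this difference in the enzyme levels was not tested.

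Cells labelled transformed also carry RASG12V but with p53 and p16INK4A knockdowns and small T. None of the 8 enzymes was called in RNA, where 4.97% of 9593 features were called higher and 5.39% lower. None was called in Ribo-Seq, where the shares were 5.34% and 7.44% of 9595 features. None was called in TE, where they were 4.35% and 10.0% of 9122 features, or 6.00% and 7.64% after centring. MSMO1 had the largest difference, 1.82-fold in RNA and 1.80-fold in Ribo-Seq, followed by HSD17B7 with 1.67-fold and 1.74-fold. CYP51A1 was at 0.996-fold in RNA and 0.956-fold in Ribo-Seq. Against the control of run 1, TM7SF2, MSMO1 and HSD17B7 were called higher in RNA, with 6.46% of features, and these and SC5DL in Ribo-Seq, with 11.2%. The Ribo-Seq and TE results here also depend on the titles of the 2 libraries with conflicting labels, since one of them is the control. With the condition field followed instead, CYP51A1, TM7SF2, SC5DL and DHCR7 were called lower in Ribo-Seq (12.8% of features), and these with MSMO1 and NSDHL in TE (24.2%).

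Senescent and transformed cells both carry RASG12V and shared a run, so they were also compared directly. In RNA, TM7SF2 was higher in senescence (2.92-fold, 8.19% of 9567 features called higher) and HSD17B7 lower (0.468-fold, 15.3% called lower). In Ribo-Seq, CYP51A1 (2.46-fold), TM7SF2 (2.90-fold), SC5DL (2.22-fold) and DHCR7 (3.24-fold) were higher in senescence, against 12.8% of 9581 features, and none was lower (17.5%). TE was higher for CYP51A1 (1.87-fold), HSD17B7 (1.67-fold) and DHCR7 (1.78-fold) and lower for none, against 13.0% and 10.7% of 8815 features. HSD17B7 thus had less RNA and a higher ratio of Ribo-Seq to RNA in senescent than in transformed cells.

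The 2 proliferating cultures, which carry the same label, show how far the enzymes moved between runs. In RNA none was called, against 4.93% of 9521 features higher in run 2 and 3.05% lower, and the log2 differences of the 7 enzymes off the floor ran from -0.36 (NSDHL) to 0.92 (MSMO1). In Ribo-Seq, HSD17B7 (3.31-fold), TM7SF2 (at least 2.08-fold) and MSMO1 (2.01-fold) were higher in run 2, against 10.5% of 9512 features, and none was lower (8.37%). TE was higher for HSD17B7 (1.80-fold) and SC5DL (1.60-fold) and lower for none of 7, against 14.9% and 11.6% of 9032 features. EBP and NSDHL had Ribo-Seq ratios of 0.950 and 0.999 between runs, so in Ribo-Seq the cultures matched closely for them and differed most for HSD17B7. In RNA both were lower in run 2, NSDHL at 12.7 against 16.3 FPKM and EBP at 13.1 against 16.1.

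The enzymes differed from each other in TE. CYP51A1 and EBP had Ribo-Seq to RNA ratios above 2 in all columns, and EBP ranked above 89.2% to 97.1% of features in every column. MSMO1 and NSDHL had ratios above 2 in all columns but one, pre-senescence for MSMO1 (1.77) and run 1 proliferation for NSDHL (1.96). TM7SF2 and HSD17B7 were the low end, with ratios of 0.807 to 1.07 and of 0.592 to 1.85, respectively. DHCR7 varied, from 1.10 in the cells labelled transformed to 3.27 in pre-senescence. The median log2 TE of the enzymes was 0.97 to 1.68 over the 6 columns, compared with 0.264 to 0.432 for all features.

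The second C14 reductase, LBR, a protein of the inner nuclear membrane that also binds lamin, did not follow TM7SF2. LBR RNA was 19.9 and 13.4 FPKM in the proliferating columns of runs 1 and 2, 17.1 in quiescence, 14.3 in pre-senescence, 2.89 in senescence and 13.1 in the cells labelled transformed. Its Ribo-Seq levels were 35.8, 22.2, 29.0, 19.1, 7.53 and 25.5 FPKM. In its levels LBR was called in senescence only, where it was lower in RNA (log2 difference -2.21) and in Ribo-Seq (-1.56). The ratio of TM7SF2 to LBR RNA was 0.145 in run 2 proliferating cells, 1.17 in quiescence and 3.08 in senescence, and it was 0.232 in the cells labelled transformed. TM7SF2 was the more abundant of the pair in quiescence (RNA) and senescence (both assays).

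**Figure D3:**
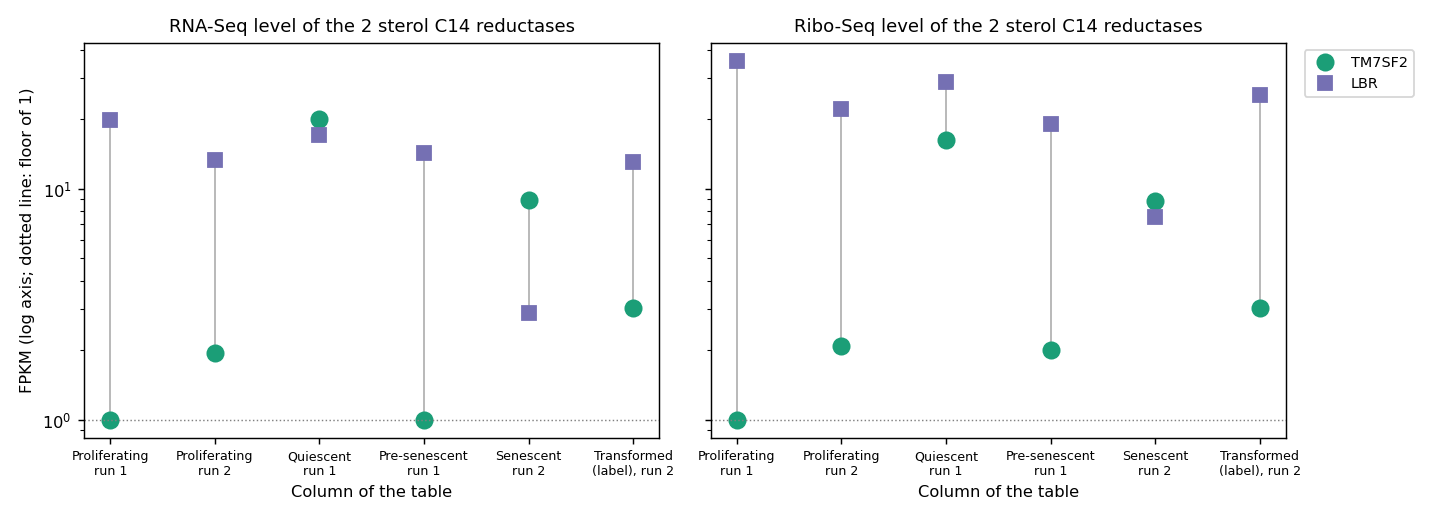
FPKM (log axis) of the C14 reductases TM7SF2 (green circles) and LBR (purple squares) by RNA-Seq (left) and Ribo-Seq (right) in the 6 columns, with the floor of 1 dotted. In RNA TM7SF2 lay above LBR in quiescence (20.05 against 17.1) and senescence (8.89 against 2.89) and below it in the other 4 columns.

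Among the other genes of these steps, 5 were in the table. C14orf1, a scaffold of the C4 demethylation complex, was 4.35-fold higher in quiescence and 2.31-fold higher in senescence in RNA. EBPL, a relative of EBP, was not called in quiescence (0.822-fold), nor was LBR (0.860-fold). In all, 2 of these 5 were called higher in quiescent RNA (4.11% of all features) and none lower (2.43%). Of 4 electron donors in the table, none was called in quiescent RNA, the largest difference being that of PGRMC1 (1.79-fold), then POR (1.67-fold), CYB5B (1.52-fold) and, smallest, CYB5A (0.967-fold).

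Upstream of lanosterol, 10 of 11 enzymes were called higher in quiescent RNA (4.11% of all features) and none lower (2.43%), with a median log2 difference of 2.36. HMGCS1, the synthase that feeds mevalonate production, was 13.7-fold and MVD, the mevalonate diphosphate decarboxylase, 7.63-fold higher, and PMVK was at 1.01-fold. In senescence 2 of the 11 were called higher in RNA (7.19% of features) and in the cells labelled transformed 3 (4.97%), with medians of 0.52 and 0.74, compared with 1.01 and 0.41 for the 8 enzymes below lanosterol. The 2 stretches therefore had their medians in opposite order in senescent and transformed cells, a difference that was not tested.

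Of 12 regulators and uptake genes, 6 were called higher in quiescent RNA and none lower, against the same 4.11% and 2.43% of features. INSIG1 was 13.2-fold and the sterol carrier STARD4 4.57-fold higher. SREBF2 RNA was 19.5 and 25.9 FPKM in the proliferating columns, 74.8 in quiescence, 25.6 in pre-senescence, 37.2 in senescence and 37.5 in the cells labelled transformed. SREBF1 RNA was 14.5, 22.1, 36.9, 9.93, 17.6 and 22.7 FPKM in the same order. SREBF2 was called in quiescence only (3.83-fold in RNA). SREBF1 was called higher in quiescence too (2.54-fold in RNA, 5.03-fold in Ribo-Seq) and had a higher TE there and in pre-senescence, by 1.98-fold and 2.20-fold. INSIG1 was called higher in the cells labelled transformed (2.84-fold in RNA) and not in senescence (1.33-fold).

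On the efflux side, 1 of 5 genes was called higher in quiescent RNA (CYP27A1, 2.21-fold, against 4.11% of features) and none lower (2.43%), with MYLIP at 1.61-fold and SOAT1 at 1.28-fold. ABCA1, the exporter of cellular cholesterol, was smallest at 1.04-fold. Its RNA levels were 1.37, 4.09, 1.43, 2.12, 17.2 and 11.4 FPKM in proliferation of runs 1 and 2, quiescence, pre-senescence, senescence and the transformed label. ABCA1 was thus near its control in quiescence and highest in senescence, being 4.20-fold higher in senescence and 2.79-fold higher in the cells labelled transformed.

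The median profile of the enzymes over 8 values (4 conditions, 2 assays) was matched most closely by DHCR7 among the 8 (Pearson r 0.991) and least by HSD17B7 (0.802). Among 7255 other features with a mean of at least 5 FPKM in each assay, the highest coefficients were those of ACLY (0.988), which makes cytosolic acetyl-CoA, PDE5A (0.980), FDFT1 (0.975), the squalene synthase, ATP9A (0.975) and ITM2B (0.975). The 8 values share control columns, and the coefficients describe likeness of shape only: PDE5A was 2.31-fold higher in quiescence but had log2 RNA differences of -1.10 in senescence and -2.08 in the cells labelled transformed.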

How the data were processed

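The deposited table held FPKM values made by the authors, who aligned reads with Bowtie (hg19, Ensembl protein-coding transcripts, 1 per gene), kept unique hits, counted RNA-Seq over whole transcripts and Ribo-Seq over coding sequences, and set FPKM below 1 to 1. How libraries were combined in 5 columns is not given in the sources used here. All 12 columns were used, without rescaling. The table holds no read counts per gene. The study gives read totals for its libraries, which were not used here, and no counting interval was computed.

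Log2 differences and TE (log2 Ribo-Seq FPKM minus log2 RNA FPKM) were computed for all 9699 features with Python 3.11.15, pandas and numpy, and called at 2-fold (levels) or 1.5-fold (TE), for features above the floor in at least 1 column compared (TE: all). The calls were tested on simulated data. The members and lists were chosen with earlier results of these data known. Named from each list were the 3 largest and the smallest absolute RNA difference in quiescence, plus SREBF1, SREBF2, INSIG1, ABCA1 and LBR; some genes that the rule names are not reported here. Other choices of control, filter, pseudocount, centring, threshold and library labels were tried as alternatives. Motifs were searched on both strands of RefSeq promoter windows. Protein sequences were not used here.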

Additional observations from a re-analysis of the deposited data

Results flagged for a closer look

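For 3 enzymes, senescence and the transformed label lay on opposite sides of their shared control column and were at least as far apart as the limit for a call. The differences were not tested, since each rests on 1 column per condition. HSD17B7 had a log2 RNA difference of -0.35 in senescence and 0.74 in the cells labelled transformed. CYP51A1 had a log2 Ribo-Seq difference of 1.24 in senescence and -0.065 in the cells labelled transformed, and log2 TE differences of 0.84 and -0.06. DHCR7 had log2 Ribo-Seq differences of 1.65 and -0.05, and log2 TE differences of 0.51 and -0.32. All but the RNA difference of HSD17B7 use the Ribo-Seq columns whose titles and condition labels conflict. In each of those pairs the value for the transformed label was small, and it was below the 2-fold or 1.5-fold limit. No condition of run 1 met this criterion, and groups of 1 column are too small to look for single deviating samples.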

How the results depend on the processing

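No paired analysis was possible because each condition has 1 column per assay and run. For the same reason no replicate could be left out. The table holds no read counts per gene, and values near the floor (TM7SF2, and HSD17B7 in run 1) are the least certain. In quiescence, 8 of 8 enzymes were called higher in RNA and in Ribo-Seq under each alternative tried. The shares of all features then ran from 2.88% to 10.9% in RNA and from 4.78% to 19.1% in Ribo-Seq. No median left its side of 0 when any 1 enzyme was left out. In quiescent RNA and Ribo-Seq all 8 lay above 0. In every other comparison too few enzymes lay on the minority side for 1 removal to move the median across 0. This outcome was therefore fixed in advance and does not measure stability. Of 200 alternative counts of called enzymes, 164 stayed within 1.5 times the count reported and 36 did not. Many of the reported counts were 0, and a 0 that stayed 0 is among the 164, so the tally does not measure stability.

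With limits of 1.5-fold for levels and 2-fold for TE, pre-senescent RNA gave 5 enzymes higher (5.8% of features). Pre-senescent TE gave 1 higher (4.92%) and 0 lower (8.32%). Quiescent TE gave 0 lower (3.97%) and senescent TE 0 higher (2.68%). The transformed label gave 3 higher in RNA (13.2%) and 2 in Ribo-Seq (13.6%). By the limit on the local SD (the multiple the study used), pre-senescence gave 2 higher in RNA (3.1% of features) and 1 in Ribo-Seq (2.72%). Its TE gave 1 higher (2.27%) and 0 lower (6.64%). Senescence gave 1 higher in RNA (1.9%), 1 in Ribo-Seq (2.24%) and 0 in TE (2.09%). Quiescent TE gave 0 lower (5.11%). With the control of the other run, quiescent TE gave 0 higher and 2 lower (17.8% of features lower, median -0.191). The share of features higher there was slightly above the 10.6% found with the control of the same run. Pre-senescent Ribo-Seq gave 2 higher (9.35%), with TM7SF2 at -0.057 and HSD17B7 at -0.194, and pre-senescent TE 1 higher (13.2%). The transformed label gave 3 higher in RNA (6.46%), 4 in Ribo-Seq (11.2%) and 2 in TE (14.8%, median 0.267). With the mean of both controls, pre-senescent Ribo-Seq gave 2 higher (6.21% of features) and TE 1 higher (11.7%). The transformed label gave 3 higher in RNA (4.99%), 3 in Ribo-Seq (6.12%) and a TE median of 0.086. Adding 1 FPKM left 0 lower in quiescent TE, where the share of features was below the 13.8% found without it. A mean of at least 5 FPKM left 1 higher in pre-senescent TE (10.6% of features). Centring left 0 lower in quiescent TE (11.6%) and 4 higher in pre-senescent TE (18.9%). The causes were not tested.

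With the Ribo-Seq columns C3.rp and S.rp exchanged, senescence gave 0 higher (16.8% of features) and 6 lower (11.2%) in Ribo-Seq (median -1.33). In TE it gave 0 higher (35.0%) and 6 lower (31.3%), with a median of -2.33. The transformed label gave 4 lower in Ribo-Seq (12.8%, median -1.02) and 6 lower in TE (24.2%). The Ribo-Seq log2 differences in senescence then became -1.24 for CYP51A1, -2.09 for TM7SF2, -1.73 for MSMO1, -1.29 for NSDHL, -1.36 for SC5DL and -1.65 for DHCR7, and those in TE -1.63 for CYP51A1 and -0.094 for HSD17B7. In senescent Ribo-Seq the direction turns because the exchange swaps group and control. In TE the RNA columns stay in place, and for the transformed label only the Ribo-Seq control changes.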
